A study of Mus musculus with 6 samples.

Results

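The 10 genes described here encode the ubiquitin ligases and transcription factors of the muscle atrophy program: Fbxo32, Trim63, Trim54, Trim55, Fbxo30, Fbxo21, Foxo1, Foxo3, Foxo4 and Klf15. They were taken by gene name from the deposited count table, and all 10 were found among its 56792 rows. All 10 also passed the filter on low counts, which left 14989 rows for testing. The cells were C2C12, a mouse myoblast line of wild-type genotype whose cells leave the cell cycle and fuse into multinucleated myotubes when serum is lowered. Both groups were kept in DMEM with 2% horse serum, and RNA was taken after 4 days of differentiation. Of 6 libraries, 3 came from cells without lenvatinib and 3 from cells with 1 µM lenvatinib, an anticancer inhibitor of the VEGF, FGF and PDGF receptor tyrosine kinases, KIT and RET. The labels do not say whether the 3 libraries of a group were separate cultures, whether the untreated cells received a solvent, or when the drug was added, so the p-values below reflect variation among libraries that could be technical replicates.

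Muscle loses protein in fasting, disuse, denervation and disease largely through the ubiquitin-proteasome system, in which E3 ligases choose the proteins to be degraded. Fbxo32 (atrogin-1) and Trim63 (MuRF1) are the ligases most used as markers of this state. FoxO transcription factors drive both genes when signaling from insulin and IGF1 through Akt is low, because Akt phosphorylates FoxO proteins and keeps them out of the nucleus. Glucocorticoids act on the same genes through their receptor and through the transcription factor Klf15. RNA levels do not show FoxO phosphorylation or ligase activity, and neither was measured here.

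The mouse Trim63 promoter holds motifs of both kinds of factor side by side. It is printed beside that of its paralog Trim54, which has no match to the motif searched for FoxO factors. Windows of 250 bases before the transcription start were taken from RefSeq (build GRCm38.p6), which gave one for 7 of the 10 genes. Capitals mark matches to a FoxO element (GTAAACA) and to the hexamer of the glucocorticoid receptor's palindromic site (AGAACA), each searched on both strands. The Trim63 window is chr4:134314870-134315119 and the Trim54 window chr5:31116362-31116611, both on the plus strand.
Trim63: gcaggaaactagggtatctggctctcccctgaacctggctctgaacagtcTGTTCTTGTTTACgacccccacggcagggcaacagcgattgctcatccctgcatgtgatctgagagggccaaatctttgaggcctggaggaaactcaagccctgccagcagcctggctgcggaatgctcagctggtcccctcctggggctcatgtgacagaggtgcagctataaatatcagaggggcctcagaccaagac
Trim54: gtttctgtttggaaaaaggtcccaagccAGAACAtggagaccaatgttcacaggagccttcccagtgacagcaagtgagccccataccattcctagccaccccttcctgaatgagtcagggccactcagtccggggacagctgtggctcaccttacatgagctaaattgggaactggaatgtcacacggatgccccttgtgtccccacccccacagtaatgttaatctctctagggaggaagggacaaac

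In the Trim63 window the receptor hexamer lies at bases -200 to -195 from the start and the FoxO element directly after it at -194 to -188, with no overlap, both on the minus strand. The Trim54 window holds a receptor hexamer at -222 to -217 and no match to the FoxO element. Only exact hexamers were searched, not the other side of the palindrome, so the hexamers of these windows are not equivalent sites. In the printed Trim63 bases tgaaca, which differs from AGAACA in 1 base, ends 3 bases before the marked hexamer. At that distance after the Trim54 hexamer the bases are agacca. Of all 32851 windows of this length, 3.17% hold the FoxO element, 16.1% the receptor hexamer and 0.691% both. The run in which they touch in this order occurs in 1 window, that of Trim63; this spacing was searched for after it was seen there. Among the other 5 genes with a window (Fbxo30, Fbxo21, Foxo1, Foxo3 and Klf15) neither motif was found. The windows of Fbxo30, Fbxo21, Foxo1 and Foxo3 overlap annotated exons (GENCODE M21) and so may be partly transcribed, while those of Trim63, Trim54 and Klf15 overlap none. The general E-box (CANNTG, same on both strands) covers sites of MyoD and myogenin and of other factors, and was present in 66.2% of windows. It was found 3 times before Trim63, 2 times before Trim54, 2 times before Klf15, 1 time before Foxo1 and not before Fbxo30, Fbxo21 or Foxo3. Both matches before Klf15 were CACGTG, while CAGCTG occurred 1 time before Trim63 and 1 time before Trim54. A match describes letters only and is not a measured binding site.

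The comparison asked which of these transcripts differed between lenvatinib-treated and untreated cells. With lenvatinib 3 of the 10 genes rose (Fbxo21, Foxo1 and Trim54), 3 fell (Fbxo32, Foxo4 and Fbxo30) and 4 did not pass the test (Trim63, Trim55, Foxo3 and Klf15). A gene was called where its adjusted p, from the quasi-likelihood test of edgeR with Benjamini-Hochberg adjustment over the 14989 rows, was under 0.05. Over all rows 28.2% were called, 13.3% higher and 14.9% lower. All changes of the 10 genes were small, from -0.34 for Fbxo32 to 0.25 for Fbxo21 on the log2 scale, with a median of -0.04 against 0.00 over all rows tested. The median size of the change regardless of direction was 0.16 for the 10 genes and 0.12 over all rows. Levels are given as CPM, each count relative to the TMM-scaled size of its library. Means carry the SD of 3 libraries, and fold changes are lenvatinib over untreated with the SE of the fit. Library totals ran from 24566768 to 32406563 counts.

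**Figure D1:**
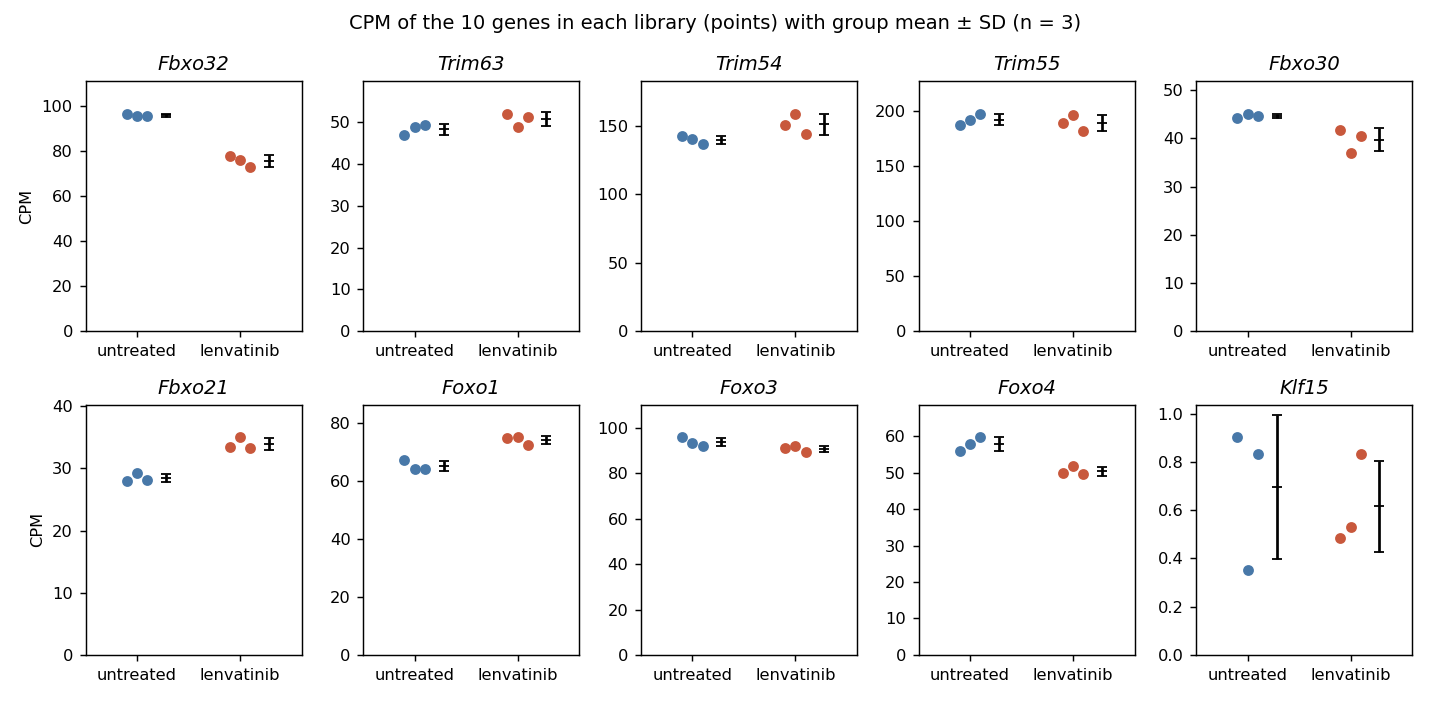
CPM (y axes from 0) of each of the 10 genes in the 3 untreated and 3 lenvatinib libraries (points), with the group mean and SD beside them (black). The lenvatinib points of Fbxo32, Fbxo30 and Foxo4 lie below all untreated points and those of Fbxo21, Foxo1 and Trim54 above them, while Trim63, Trim55 and Klf15 overlap.

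Fbxo32, on chromosome 15 from 58039275 to 58078328, encodes the muscle F-box protein that directs MyoD and the translation factor eIF3f to degradation. Its level was 96.7, 95.7 and 95.5 CPM in the untreated libraries and 77.9, 76.2 and 72.9 CPM in the lenvatinib libraries. The untreated values lay close together and every lenvatinib value was well below them. The mean fell by 21.2%, which is 1.27-fold lower (log2 fold change -0.34 ± 0.04, edgeR adjusted p = 2.68e-10). This was the smallest p of the 10 genes, rank 398 of the 14989 rows, and a change larger in size than that of 82.7% of rows.

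Fbxo30, on chromosome 10 from 11157074 to 11173796, encodes MUSA1, an F-box ligase that is induced in denervated muscle when BMP signaling is blocked. It measured 44.1, 45.1 and 44.6 CPM without and 41.7, 37.03 and 40.4 CPM with lenvatinib. The groups did not overlap, but the second lenvatinib library was lower than the other two. The fall was 10.9% (-0.17 ± 0.05, edgeR adjusted p = 0.00744), and without that library it no longer passed (-0.12, adjusted p = 0.0902).

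Fbxo21 (chromosome 5, 118114795 to 118148266), which encodes SMART, an F-box ligase that FoxO factors induce in atrophying muscle, went the other way. It measured 28.02, 29.2 and 28.1 CPM in the untreated and 33.4, 34.98 and 33.3 CPM in the lenvatinib libraries. All lenvatinib values exceeded all untreated values. The rise was 19.3% (0.25 ± 0.05, edgeR adjusted p = 0.000245), the largest rise among the 10 genes. The 3 F-box genes named in the atrophy program thus included 2 that fell and 1 that rose.

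The MuRF genes encode RING-finger ligases of the sarcomere that associate with one another and with titin or microtubules. Trim63 (MuRF1, chromosome 4, 134042431 to 134056940), which marks myosin heavy chain and other thick-filament proteins for degradation, was at 46.9, 48.8 and 49.5 CPM without and 52.1, 48.8 and 51.2 CPM with the drug. The second lenvatinib library lay inside the untreated range, so the groups overlapped. The difference of 0.07 ± 0.04 did not pass (edgeR adjusted p = 0.277), and its 95% interval ran from -0.02 to 0.16. The interval leaves out a fall of the size seen for Fbxo32.

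Trim54 (MuRF3, chromosome 5, 31274056 to 31294974), which stabilizes microtubules and the Z-line in differentiating myotubes, measured 142, 140.6 and 136 CPM without and 151, 159 and 144 CPM with lenvatinib. The lowest lenvatinib value was just above the highest untreated one. The rise was 8.03% (0.11 ± 0.03, edgeR adjusted p = 0.00941). It did not pass without the third untreated library (0.09, adjusted p = 0.06) or without the second lenvatinib library (0.08, adjusted p = 0.129).

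Trim55 (MuRF2, chromosome 3, 19698638 to 19746585), which binds microtubules and titin early in sarcomere assembly, was at 187, 192 and 197 CPM without and 189, 196 and 182 CPM with lenvatinib. The groups overlapped over most of their range. The difference was -0.02 ± 0.03 (edgeR adjusted p = 0.636; 95% interval -0.09 to 0.04).

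The FoxO genes encode the forkhead factors that carry the atrophy signal to chromatin. Foxo1, on chromosome 3 from 52175757 to 52260642, was at 67.3, 64.2 and 64.4 CPM without and 74.9, 75.2 and 72.6 CPM with lenvatinib. Every lenvatinib library was above every untreated one. The rise was 13.6% (0.18 ± 0.04, edgeR adjusted p = 0.000187).

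Foxo4 (chromosome X, 100298134 to 100304479) moved in the opposite direction. It measured 55.96, 57.9 and 59.7 CPM in the untreated and 49.8, 51.8 and 49.5 CPM in the lenvatinib libraries, with a clear gap between the groups. It fell by 13.0% (-0.20 ± 0.04, edgeR adjusted p = 0.000245).

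Foxo3 (chromosome 10, 42057837 to 42152751), the FoxO factor most studied as an activator of Fbxo32, measured 95.9, 93.6 and 92.3 CPM without and 91.4, 91.9 and 89.3 CPM with lenvatinib. The lenvatinib values lay just below the untreated ones, without overlap, but the difference was small. It did not pass the test (-0.05 ± 0.03, edgeR adjusted p = 0.325; 95% interval -0.12 to 0.02). Counting Foxo3, the groups did not overlap in 7 of the 10 genes, 3 with all lenvatinib values above and 4 with all below; over all rows 40.1% did not overlap, 19.6% above and 20.5% below.

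Foxo6, another family member, outside the list and added after its values were seen, rose from 35.4 ± 1.92 to 42.5 ± 0.813 CPM (0.27 ± 0.05, edgeR adjusted p = 5.3e-05). The 4 FoxO transcripts thus included 2 that rose, 1 that fell and 1 that did not pass.

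Klf15 (chromosome 6, 90439558 to 90452220), a Krüppel-like factor that glucocorticoids induce and that promotes amino acid breakdown, was barely detected. Its counts were 24, 9 and 24 in the untreated and 12, 13 and 27 in the lenvatinib libraries, or 0.697 ± 0.30 and 0.617 ± 0.19 CPM. The groups overlapped, and both held a library well apart from the other two. The difference was -0.15 ± 0.35 (edgeR adjusted p = 0.803). Its 95% interval from -0.86 to 0.56 includes changes larger than any seen in the other 9 genes, so a change of their size was not detectable at this depth.

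**Figure D2:**
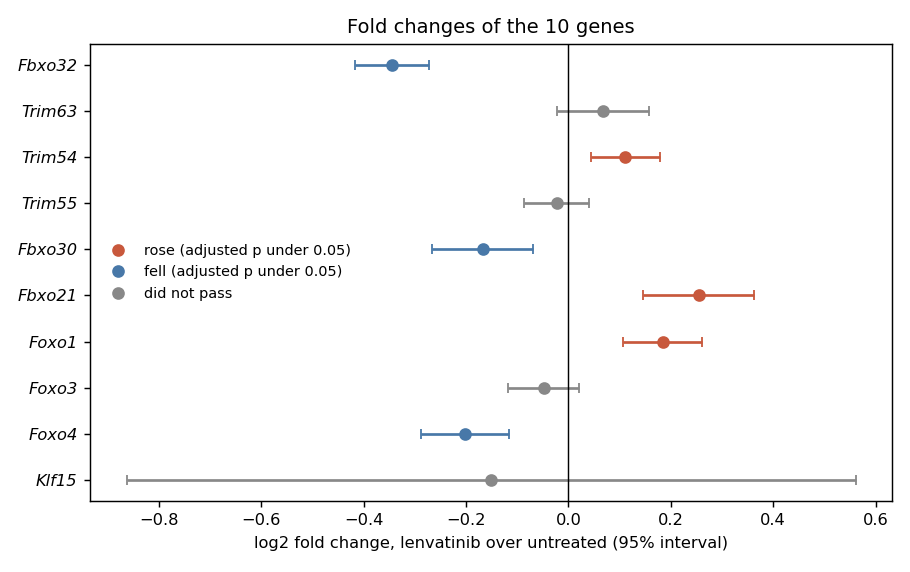
Log2 fold change of each gene (x axis, lenvatinib over untreated) with its 95% interval from the edgeR fit, in red for genes that rose, blue for genes that fell and grey for those that did not pass. Fbxo32 at -0.34 and Fbxo21 at 0.25 lie farthest from 0 among the 6 called genes, and Klf15 has the widest interval.

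Levels were compared between genes per kilobase of the deposited feature length, so their order depends on those lengths. In untreated cells Trim54 was highest at 87.8 ± 1.85 CPM per kilobase, followed by Trim55 at 35.9 ± 0.998. Next came Foxo4 (16.1 ± 0.521) and Trim63 (16.03 ± 0.443), whose libraries overlapped. Fbxo32 (12.8 ± 0.0871), Foxo3 (12.4 ± 0.242), Fbxo30 (7.92 ± 0.0851), Foxo1 (5.71 ± 0.152), Fbxo21 (5.13 ± 0.121) and Klf15 (0.25 ± 0.107) followed in CPM per kilobase, each apart from its neighbour in all 3 libraries. With lenvatinib Fbxo32 (10.1 ± 0.335) stood below Foxo3 (11.9998 ± 0.186), and Trim63 (16.8 ± 0.561) above Foxo4 (14.03 ± 0.338). The ranges of Fbxo30 (7.05 ± 0.43) and Foxo1 (6.49 ± 0.124) then overlapped.

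The level of Trim63 relative to Fbxo32, the other classical atrophy ligase, was compared within libraries. In each library the log2 ratio of Trim63 to Fbxo32 per kilobase was 0.27, 0.34 and 0.36 without and 0.73, 0.67 and 0.80 with lenvatinib. Its sign depends on the deposited feature lengths, 3019 bases for Trim63 and 7494 for Fbxo32. In CPM, not divided by length, Fbxo32 was above Trim63 in both groups. The means were 95.9 and 48.4 CPM without and 75.7 and 50.7 CPM with lenvatinib. The difference between the groups does not depend on the lengths. All 3 lenvatinib ratios were above all untreated ones, by 0.41 on average (exact two-sided permutation test, p = 0.1, adjusted over 3 comparisons p = 0.15). With 3 libraries against 3 no smaller p than 0.1 can be reached, so none of these comparisons could pass 0.05. The difference of 0.41 restates the fold changes given above, -0.34 for Fbxo32 and 0.07 for Trim63, of which only that of Fbxo32 passed. It is not separate evidence of a change in Trim63.

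Foxo1 made up 17.2, 16.4 and 16.3% of the summed level per kilobase of Foxo1, Foxo3 and Foxo4 in the untreated libraries. In the lenvatinib libraries its share was 20.2, 19.8 and 19.9%. The groups did not overlap, and the mean share was 3.28 percentage points higher with lenvatinib (exact two-sided permutation test, p = 0.1, adjusted p = 0.15). The share of Foxo4 went from 47.1 ± 1.32% to 43.1 ± 0.407% and that of Foxo3 from 36.2 ± 0.862% to 36.9 ± 0.243%. These shares depend on the deposited feature lengths, 11441 bases for Foxo1 and 3589 for Foxo4. In CPM, not divided by length, Foxo1 was above Foxo4 in both groups. The means were 65.3 and 57.9 CPM without and 74.3 and 50.4 CPM with lenvatinib. The summed level of Foxo1, Foxo3 and Foxo4 was 34.1, 34.1 and 34.5 CPM per kilobase without and 32.5, 33.1 and 31.9 with lenvatinib. This sum leaves out Foxo6, which was higher with lenvatinib (12.2 ± 0.661 without and 14.6 ± 0.279 CPM per kilobase with it). It therefore does not describe the whole family. With Foxo6 included, the Foxo1 share was 12.3 ± 0.335% and 13.8 ± 0.215%, and its difference was 1.47 percentage points.

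Trim63 held 11.1, 11.5 and 11.8% of the summed MuRF level per kilobase without and 11.7, 10.6 and 12.004% with lenvatinib. The ranges overlapped (exact two-sided permutation test, p = 0.9, adjusted p = 0.9). Trim54 held most of that level, at 62.8 ± 1.12% and 64.5 ± 0.729%, and Trim55 held 25.7 ± 0.79% and 24.05 ± 0.0236%. This order depends on the deposited feature lengths, 1591 bases for Trim54 and 5342 for Trim55. In CPM, not divided by length, Trim55 was above Trim54 in both groups. The means were 192 ± 5.33 and 139.7 ± 2.94 CPM without and 189 ± 7.45 and 151 ± 7.5 CPM with lenvatinib.

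**Figure D3:**
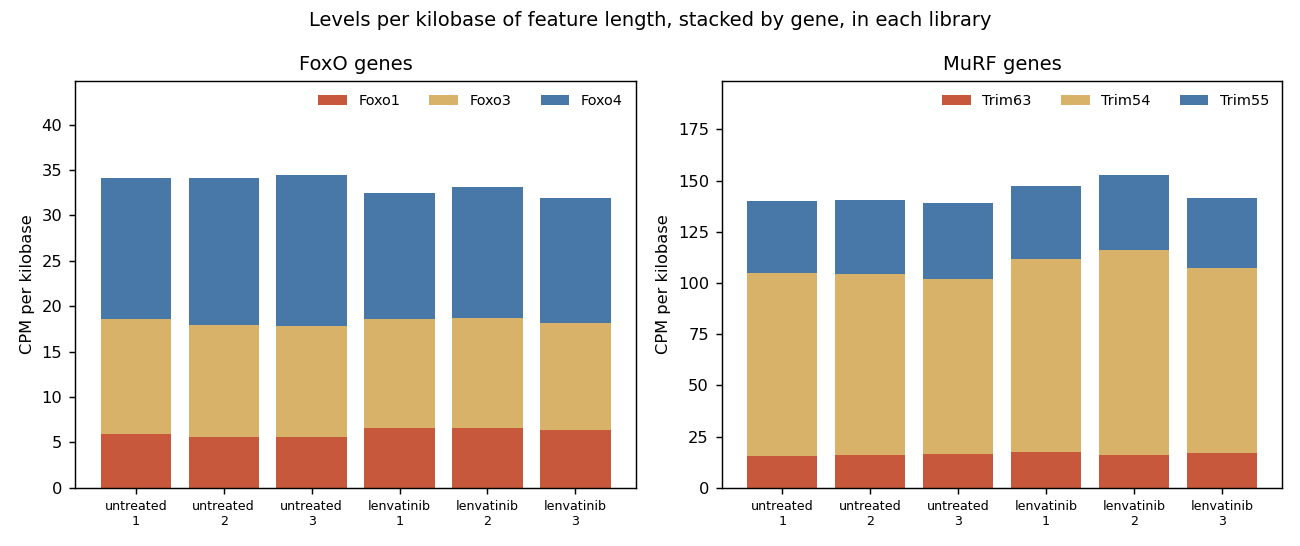
Stacked bars give the CPM per kilobase of feature length in each of the 6 libraries, from 0. Foxo1, Foxo3 and Foxo4 are on the left (Foxo6 not shown) and the MuRF genes on the right. The Foxo4 segment is shorter and the Foxo1 segment taller in each lenvatinib bar, and Trim54 fills most of every MuRF bar.

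The genes whose profile over the 6 libraries was most like that of Fbxo32, by the smallest root mean square difference of centred log2 CPM among 10054 rows of at least 5 CPM, were H1f2, a linker histone (0.02), Tmem106b, a lysosomal membrane protein (0.02), and Gla, a lysosomal galactosidase (0.02). H1f2 went from 146 ± 2.01 to 118 ± 3.69 CPM, Tmem106b from 157 ± 3.7 to 125 ± 4.25 CPM and Gla from 15.004 ± 0.109 to 12.05 ± 0.516 CPM. In all, 794 of the 10054 rows lay within 0.1 of Fbxo32. Among the nearest to Trim63 were the nuclear pore gene Ndc1 (0.01) and Oaz1, encoding antizyme (0.01), and 5971 rows lay within 0.1.

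Known target genes of FoxO factors went both ways. Of 25 tested targets 7 rose, 10 fell and 8 did not pass, 68% called against 28.2% of all rows. Their median log2 fold change was -0.04 against 0.00 over all rows. This list and those below were chosen with earlier results of these data known, so their shares called are not a test. Sesn3, encoding a sestrin that restrains mTORC1, fell from 109 ± 2.63 to 83.3 ± 2.83 CPM (-0.38 ± 0.04, edgeR adjusted p = 1.16e-11). Txnip, an inhibitor of thioredoxin and glucose uptake, fell from 69.3 ± 2.67 to 54.01 ± 3.67 CPM. The cell cycle inhibitor gene Cdkn1a fell from 1935 ± 35.3 to 1689 ± 19.1 CPM, and the transcriptional co-regulator gene Cited2 rose from 197 ± 3.67 to 227 ± 2.25 CPM.

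Genes upstream of FoxO changed by similar small amounts. Of 22 tested genes of the insulin, IGF and Akt pathway 3 rose, 6 fell and 13 did not pass (40.9% called, median -0.02). Mtor, the kinase of both mTOR complexes, fell from 138 ± 3.55 to 118 ± 2.65 CPM, and Pik3r1, the main regulatory subunit of PI3-kinase, from 103 ± 3.93 to 87.5 ± 3.11 CPM. Another regulatory subunit gene, Pik3r2, rose from 123 ± 1.77 to 143 ± 5.02 CPM. Akt2, the Akt kinase gene tied to glucose uptake in muscle, rose from 275 ± 5.39 to 312 ± 3.9 CPM (0.18 ± 0.03, edgeR adjusted p = 1.09e-06). Of 27 tested enzymes and binding proteins that modify FoxO activity 7 rose, 1 fell and 19 did not pass (median 0.03), a share called of 29.6%, near the 28.2% of all rows. The gene that fell was that of the acetyltransferase Crebbp (-0.23), while Ywhah, which encodes a protein that holds phosphorylated FoxO in the cytoplasm (0.19), the nuclear export receptor gene Xpo1 (0.20) and the stress kinase gene Mapk8 (0.17) rose. The number that fell was 3 when either the second or the third lenvatinib library was left out, and 2 when the second untreated library was. It was also 2 with library totals only, with no filter on low counts, with the filter of at least 5 CPM, with the replicate block and with the correction for feature length. At adjusted p under 0.01, 4 rose.

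In the glucocorticoid and Klf15 axis 3 of 15 tested genes rose, 5 fell and 7 did not pass (median -0.08). The share called was 53.3% against 28.2% of all rows. Without the second untreated library 3 fell. The glucocorticoid receptor gene Nr3c1 fell from 96.96 ± 4.59 to 76.8 ± 3.56 CPM (-0.33 ± 0.04, edgeR adjusted p = 8.02e-09). Hsd11b1, whose enzyme regenerates active glucocorticoid inside cells, fell from 25.7 ± 2.001 to 15.6 ± 0.737 CPM, lower by a factor of 1.66 (-0.73 ± 0.07, adjusted p = 1.49e-11). The receptor co-chaperone gene Fkbp4 rose by 0.22 on the log2 scale, and the glucocorticoid-induced gene Tsc22d3 rose from 64.9 ± 1.58 to 74.8 ± 2.76 CPM. Elsewhere in this list Dusp1 rose (0.23), Per1 fell (-0.18) and Fkbp5 did not pass (-0.11).

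Among 31 other tested ubiquitin ligase genes of muscle 5 rose, 6 fell and 20 did not pass (35.5% called, median -0.06). Asb2, a cullin-ring ligase receptor for filamins and desmin, measured 2.75, 3.45 and 2.78 CPM without and 11.8, 11.3 and 10.8 CPM with lenvatinib. It was 3.77-fold higher (1.91 ± 0.12, edgeR adjusted p = 5.23e-17), a larger change than in any of the 10 genes. Its relative Asb5 rose from 249.8 ± 7.23 to 285 ± 2.72 CPM. Trim72, which helps to reseal the sarcolemma, fell from 645 ± 7.43 to 583 ± 9.37 CPM, and Fbxw7, which targets cyclin E and Notch, from 76.4 ± 2.38 to 66.4 ± 2.06 CPM.

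F-box proteins work inside SCF complexes, whose shared subunits were also measured. They were listed with genes for ubiquitin and its activating and conjugating enzymes, not all of which act with SCF. Of 19 tested genes of this list 2 rose, 2 fell and 15 did not pass, 21.1% called against 28.2% of all rows. The scaffold gene Cul1 fell by 0.10 and the conjugating enzyme gene Ube2r2 by 0.14 on the log2 scale, and Ube2j1 rose by 0.14. The ring subunit gene Rbx1 rose by 0.09 (edgeR adjusted p = 0.0405), a call lost with DESeq2 (adjusted p = 0.113), limma-voom (0.0689), the replicate block (0.051) and the correction for feature length (0.0768). It was also lost without untreated library 1 or 2 or lenvatinib library 1 or 2 (0.0757, 0.213, 0.159 and 0.0991). Cul1 did not pass without the third lenvatinib library (adjusted p = 0.0759). Of 10 tested deubiquitinating enzyme genes 2 rose and 1 fell, 30% called. Usp13 (0.25) and Cyld (0.10) were higher and Tnfaip3 (-0.34) lower. Cyld did not pass with DESeq2 (adjusted p = 0.0597). It also did not pass without the second untreated or first lenvatinib library (edgeR adjusted p = 0.108 and 0.105).

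Transcripts of proteins listed as substrates of muscle ubiquitin ligases, not only of those among the 10 genes, were described as well. Of 18 tested genes 6 rose, 5 fell and 7 did not pass (61.1% called against 28.2% of all rows, median 0.01). The intermediate filament gene Des fell from 3364 ± 83.3 to 2949 ± 55.8 CPM, while Vim rose from 2110 ± 56.7 to 2424 ± 21.6 CPM. Tpm1 rose by 0.31 and Myl4 fell by 0.28 on the log2 scale. Elsewhere in this list Eif3f, whose protein Fbxo32 targets, fell (-0.09, edgeR adjusted p = 0.0405). The MyoD gene was not in the list. Among 11 tested genes of the denervation response 3 rose and 5 fell (72.7% called, median -0.06). Hdac4, a deacetylase that acts upstream of myogenin in denervated muscle, fell from 37.3 ± 1.6 to 28.8 ± 1.83 CPM, and Gadd45a fell by 0.13. Myog, encoding myogenin, which activates Fbxo32 and Trim63 after denervation, rose from 856 ± 10.2 to 1036 ± 14.1 CPM, and the acetylcholine receptor gene Chrna1 rose by 0.17.

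Skeletal muscle growth is also restrained by myostatin and activins. Of 13 tested genes of the myostatin and activin input to Smad signaling, which promotes atrophy, 5 rose, 2 fell and 6 did not pass. The share called was 53.8% against 28.2% of all rows, and the median 0.10. Without the first untreated or the third lenvatinib library 1 fell. The 2 antagonists of these ligands in the list rose: Fstl3 from 38.9 ± 1.78 to 71.7 ± 1.34 CPM (0.88 ± 0.04, edgeR adjusted p = 3.68e-20) and Fst from 127 ± 1.29 to 176 ± 5.41 CPM (0.47 ± 0.03, adjusted p = 4.43e-16). Inhba, the activin A subunit, fell from 152 ± 3.83 to 138 ± 2.87 CPM. Mstn, encoding myostatin, had 6, 3 and 8 counts without and 20, 19 and 20 counts with lenvatinib (0.207 ± 0.0819 and 0.734 ± 0.102 CPM, adjusted p = 0.00108), so it rose from a level close to that of 3 counts, 0.0927 to 0.123 CPM per library. These floors cover counting error only.

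**Figure D4:**
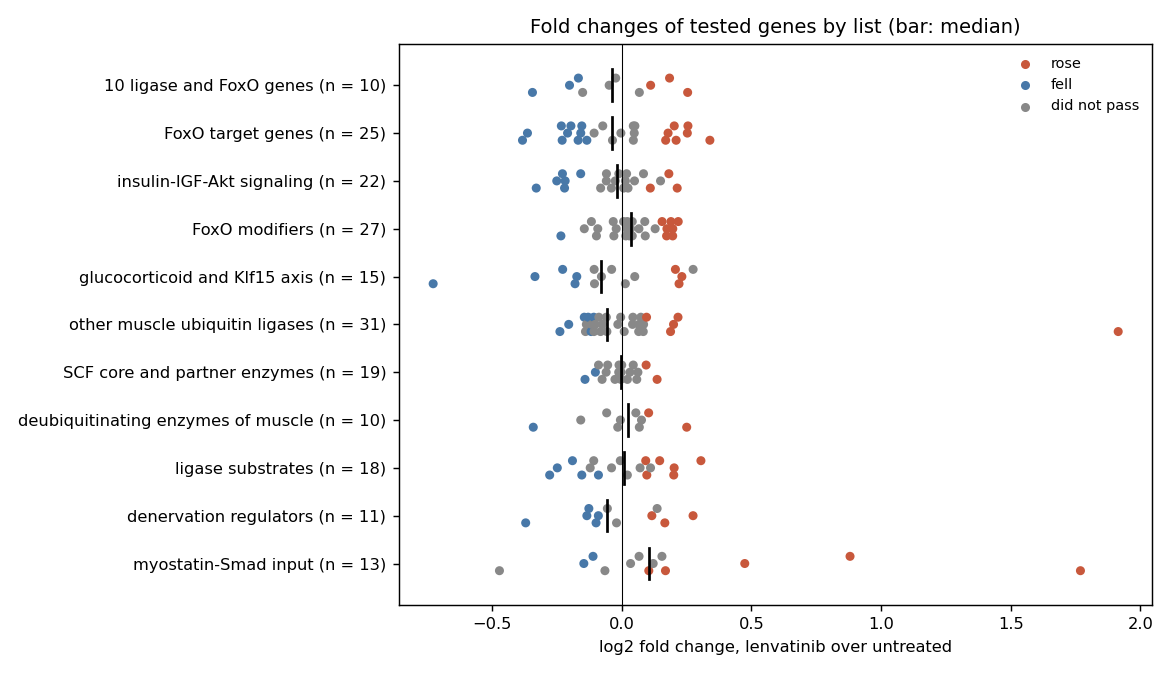
Each point is the log2 fold change (x axis, lenvatinib over untreated) of 1 tested gene, by list (y axis, cell type, differentiation and proliferation marker lists not shown), in red where it rose, blue where it fell and grey where it did not pass; bars are list medians. Medians of the lists shown lie between -0.08 and 0.10, and Asb2 at 1.91 and Mstn at 1.77 stand farthest to the right.

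Markers of differentiation state and of other cell types were measured beside these genes. Myotube markers summed to 10772 to 11142 CPM in the untreated and 11527 to 11576 CPM in the lenvatinib libraries. Of 9 tested 4 were higher (among them Myog, Ckm and Mymk), 2 lower (among them Actn2) and 3 did not pass. The share called was 66.7% against 28.2% of all rows. Elsewhere in this list Myh3, the largest part of the sum, rose from 5973 ± 138 to 6386 ± 71.8 CPM. Ryr1 fell from 1064 ± 39.3 to 894 ± 53.3 CPM (-0.25), and Myh8, Mymx and Tnnt3 did not pass. Markers of undifferentiated myoblasts summed to 148 to 158 and 182 to 190.1 CPM, with 4 of 6 tested higher (Myf5, Id1, Id2 and Id3). The share called was 66.7%. Id3 went from 22.5 ± 1.47 to 39.9 ± 1.51 CPM and Id1 from 26.3 ± 0.856 to 37.2 ± 1.59 CPM. Cd34, the highest of the list, went from 52.6 ± 3.29 to 47.7 ± 4.24 CPM and Pax7 from 10.9 ± 0.364 to 11.6 ± 0.407 CPM. Neither of these passed. Proliferation markers summed to 208 to 240.1 and 241 to 255 CPM, with 3 of 7 higher (Top2a, Cdk1 and Aurkb), 42.9% called. Cdk1 did not pass without the third untreated or the third lenvatinib library (edgeR adjusted p = 0.0766 and 0.0633), nor Aurkb without the second lenvatinib library (0.0838). Their part in the results for the 10 genes was not tested, and in bulk RNA fewer cells of a type and less RNA per cell cannot be told apart. Fibroblast markers summed to 95.3 to 103 and 92.9 to 94.9 CPM, with Cd248 higher and Pdgfra lower of 4 tested and Tcf21 at 0 in all 6 libraries. Adipocyte markers summed to at most 5.95 CPM with Plin1 at 0, endothelial markers to at most 2.63 CPM and macrophage markers to at most 2.95 CPM with Adgre1 at 0. Cardiomyocyte markers summed to 27.99 to 32.6 and 29.1 to 31.4 CPM, nearly all from Gata4 and Myh6.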

How the data were processed

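The values deposited by the authors are unnormalized whole-number counts of reads, with 1 row per gene and 1 column per library. Per the labels' protocols reads were aligned with Hisat2 2.0.1, and HTSeq 0.6.1 and mm10 are named per the submitters' processing notes. For read filters, annotation and strand the setting was not given in the sources used, so reads of overlapping antisense genes cannot be told apart. None of the 10 genes has the position of GENCODE M21 (mm10), so gene positions are printed as deposited, without a build. The deposited feature length in bases (unit other) served for levels per kilobase.

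CPM and fold changes were computed here with edgeR 4.0.16 (R 4.3.3): TMM factors, filterByExpr (minimum count 10, minimum total 15), robust glmQLFit and glmQLFTest over all rows of all 6 libraries. The SE came from the F statistic. The fit was run on simulated data with a single fixed dispersion and planted changes larger than any of the 10 genes. That run does not cover changes of their size. The 3 within-library ratios and shares used exact permutation tests. The 10 genes and the 18 other lists were chosen with earlier results of these data known. Named genes were the 10, up to 4 called genes per list with the smallest p, and the 3 nearest profiles to Fbxo32 and Trim63, of which 1 is not reported here; others are marked. Replicates differed by more than sampling noise (chi-square per degree of freedom 2.78 to 5.6). Alternatives were other scalings and filters, DESeq2 1.42.0, limma-voom (limma 3.58.1), a stricter threshold, a replicate block and leaving out each library, and, chosen after seeing the data, a correction for feature length and Foxo6 in the FoxO share.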

Additional observations from a re-analysis of the deposited data

How the results depend on the processing

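Across 16 alternative settings the number of rows called ran from 3049 (adjusted p under 0.01) to 4326 (correction for feature length), against 4228 as reported, with 3319 by DESeq2 and 4039 by limma-voom. Leaving out 1 library gave 3618 to 3797. The count of risen genes among the 10 was 3 under every setting except 2 without the third untreated or second lenvatinib library, where Trim54 was lost. The count of fallen genes was 3 except 2 without the second lenvatinib library, where Fbxo30 was lost. Fbxo32, Fbxo21, Foxo1 and Foxo4 kept their calls and directions under all 16.

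Directions turned only among values that had not passed a test: Trim55 without the third lenvatinib library (0.00586, range -0.0505 to 0.00586 on leaving out 1 library), Klf15 without the first (0.0645) or the third (0.000385) untreated library (range -0.46 to 0.0645), and the Trim63 share of the MuRF level from raw counts not divided by length (0.263 percentage points). Leaving out 1 library moved that share difference between -0.318 and 0.392 percentage points, and the third untreated library's absence gave 0.125. The cause was not tested. Replicate numbers did not pair the libraries (correlations of same-numbered deviations 0.0217, -0.0782 and -0.00417 over 10002 genes), and the replicate block gave 4134 calls. With the block the exact p of the Trim63 to Fbxo32 log2 ratio (0.41) and of the Foxo1 share (3.28) was 0.25, the smallest that 3 pairs allow. With the correction for feature length 5 insulin, IGF and Akt genes rose in place of 3. With DESeq2 1 gene of the SCF and conjugating enzyme list and 1 deubiquitinating enzyme gene rose in place of 2 each. Of the FoxO modifiers 2 fell in place of 1 with the replicate block and under 4 other settings that kept all libraries. At adjusted p under 0.01, 4 of them rose in place of 7, 3 genes of the glucocorticoid axis fell in place of 5, and 1 of the myostatin list fell in place of 2. Klf15 could not be given a value with the filter of at least 5 CPM. Its low count limits what can be seen.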
